A study of Mus musculus with 24 samples.

Results

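The genes of 1 imprinted domain on mouse chromosome 12 were followed across embryonic stem (ES) cells of 6 genotypes. They are Dlk1 (ENSMUSG00000040856.11), Meg3 (ENSMUSG00000021268.10), Rian (ENSMUSG00000091793.1) and Mirg (ENSMUSG00000091158.1). These were the 4 rows with these symbols among the 37310 gene entries of each of the 2 deposited expression tables. All 4 passed the filter on low values in both tables. Besides wild type (WT), cells lacked Smchd1 (named Smchd1 KO), Dux (Dux KO), or Smchd1 together with Dux (Double KO). In another set they lacked Tet1, Tet2 and also Tet3 (Tet TKO), or these and Smchd1 (quad KO). Each genotype had 3 biological replicates. All cells grew without feeder cells on gelatin, in serum with the cytokine LIF, and ribosomal RNA was depleted from total RNA before sequencing. The labels name neither the parental line nor the number of clones.

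The Dlk1-Dio3 domain is a textbook case of genomic imprinting, in which the copy inherited from a single parent is active. The paternal chromosome expresses the protein-coding genes Dlk1, Rtl1 and Dio3, and the maternal chromosome expresses a string of noncoding RNAs, Meg3 (also called Gtl2), Rian and Mirg. An intergenic region that is methylated on the paternal copy controls both sides, and silencing of Meg3 and its neighbours is a known variation between mouse pluripotent cell lines. DLK1 is a membrane protein of the Notch ligand family that restrains differentiation, for example of fat cells. Meg3 is a long noncoding RNA, Rian is the host of C/D box small nucleolar RNAs (snoRNAs), and Mirg is the host of a large group of microRNAs (miRNAs). SMCHD1 is a chromatin protein with a part in the silencing of the inactive X chromosome and of some imprinted clusters, DUX is a transcription factor of the early embryo, and the TET enzymes oxidise methylated cytosine.

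The promoters of the paternal and the maternal gene at the head of the domain are shown because these genes stand for the 2 sides of the domain in the values that follow. Both are RefSeq sequences of GRCm38.p6, from 250 bases before to 50 bases after the start of transcription, plus strand, with each CpG in capitals.
Dlk1, chr12:109452573-109452872: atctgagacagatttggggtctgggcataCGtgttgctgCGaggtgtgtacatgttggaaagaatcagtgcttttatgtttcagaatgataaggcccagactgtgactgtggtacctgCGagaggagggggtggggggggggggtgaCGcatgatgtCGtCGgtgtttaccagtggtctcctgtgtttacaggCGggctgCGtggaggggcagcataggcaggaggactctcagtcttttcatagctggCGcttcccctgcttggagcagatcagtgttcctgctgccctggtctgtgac
Meg3, chr12:109540746-109541045: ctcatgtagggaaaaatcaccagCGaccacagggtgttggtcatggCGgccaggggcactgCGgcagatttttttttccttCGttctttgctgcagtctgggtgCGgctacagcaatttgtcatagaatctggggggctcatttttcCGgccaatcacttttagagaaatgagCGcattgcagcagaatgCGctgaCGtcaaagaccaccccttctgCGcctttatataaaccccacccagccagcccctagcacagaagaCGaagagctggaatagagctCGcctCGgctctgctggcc
The Meg3 window shown held 13 CpG and the Dlk1 window 9, against a median of 7 over 32851 promoters of this length. The letters TGCCGC, the core bound by the imprint-keeping zinc finger protein ZFP57, were looked for on both strands. They occurred 1 time in the Meg3 window, at -190 from the start, and not in the Dlk1 window, and 11.6% of all promoters held them at least 1 time. Another annotated start of Meg3, with its window at chr12:109545148-109545447, held 1 CpG and no such letters. The windows at the annotated starts of Rian and Mirg held 0 and 10 CpG and no such letters. No methylation was measured here.

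The noncoding RNAs of the domain also carry the miRNA and snoRNA genes, and RefSeq lists 105 mature miRNAs from 57 genes on the plus strand between Meg3 and Dio3. Of their 97 seeds (bases 2 to 8, in capitals), 8 were shared by a pair of miRNAs. The following are shown because their gene entries are described below: miR-127 and miR-433 lie opposite the coding gene Rtl1, and miR-379 and miR-411 share the seed of their 3p arms.
miR-127-3p, chr12:109592888-109592909: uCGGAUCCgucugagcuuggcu
miR-433-3p, chr12:109591781-109591802: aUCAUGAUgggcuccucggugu
miR-379-3p, chr12:109709102-109709123: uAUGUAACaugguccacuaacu
miR-411-3p, chr12:109710225-109710246: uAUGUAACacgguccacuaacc
The libraries were made from long RNA, so a count at such an entry came from the transcript that spans the gene and not from the mature miRNA.

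Levels are given in CPM (counts per 1e6 counts) for each of the 3 replicates or as mean ± SD with n = 3. Tet TKO and quad KO share a table, the other 4 genotypes share another, and no test was made across the tables. Gene reads per library ran from 11.4 to 74.4 in units of 1e6. WT replicates differed by a noise ratio of 1.33 to 2.19, where 1 is counting error alone, against 1.59 to 1.89 between technical runs of 1 WT replicate. Dux KO and Double KO replicates reached 31.7 and 32.3, and quad KO replicates 11.1. Smchd1 followed the labels: 206 ± 2.28 CPM (WT) and 193 ± 19.6 CPM (Dux KO) stood against 60.4 ± 15.3 CPM (Smchd1 KO) and 79.0 ± 8.48 CPM (Double KO), and 155 ± 5.46 CPM (Tet TKO) against 23.4 ± 14.7 CPM (quad KO). Dux was too low to check the Dux KO label, at 0.0983 ± 0.0517 CPM in WT. Tet1 reads remained at 272 ± 3.21 CPM (Tet TKO) and 289 ± 7.22 CPM (quad KO). Tet2, at 337 ± 6.57 and 235 ± 2.81 CPM, and Tet3, at 44.4 ± 1.47 and 45.3 ± 1.58 CPM, still had transcripts there. For the ES cell label, Pou5f1, the defining pluripotency factor, lay between 364 and 773 CPM in every sample. Nanog, another such factor, lay between 181 and 508 CPM in the first table and fell 5.28-fold in quad KO, to 30.8 CPM in its lowest sample, with Esrrb, Klf4 and Zfp42 lower there by 2.53 to 3.78 times. In bulk RNA, fewer cells that express a gene and less RNA per cell cannot be told apart.

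The maternal noncoding RNAs were all but lost in 2 of the 18 samples, Dux KO replicate 1 and quad KO replicate 2, and were low in quad KO replicate 3 too. Meg3 stood at 2.39, 281 and 231 CPM in Dux KO replicates 1, 2 and 3. Rian followed with 3.13, 341 and 440 CPM, and Mirg with 0.597, 21.9 and 30.3 CPM. Dux KO replicate 1 was therefore 96.9 and 118 times below its fellow replicates in Meg3, from 32 reads, while the other 2 lay above every WT sample. In quad KO replicates 1, 2 and 3, Meg3 stood at 44.4, 0.460 and 7.36 CPM, Rian at 103, 1.10 and 17.98 CPM, and Mirg at 10.2, 0.106 and 1.69 CPM. Replicate 2 rested on 13 Meg3, 31 Rian and 3 Mirg reads. Among the 3 quad KO samples, which carry the same genotype label, Meg3 spanned 96.6 times and Rian 94.3 times.

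**Figure D1:**
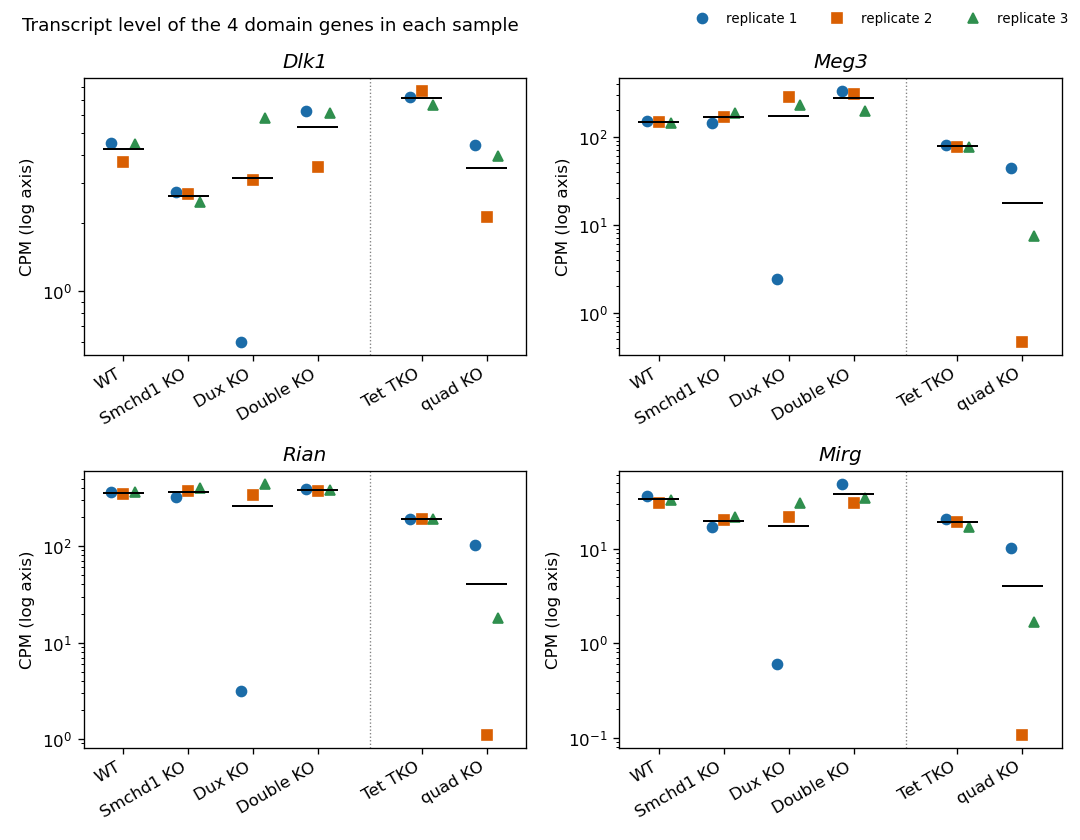
Transcript level of each gene in every sample, in CPM on a log axis, by genotype; points are replicates, black lines are means of 3, and the dotted line separates the 2 tables. Dux KO replicate 1 and quad KO replicate 2 lie far below their fellow replicates in Meg3, Rian and Mirg, and Dlk1 is low in the same 2 samples by a smaller factor.

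Few genes varied as much between samples of 1 genotype. By the range of log2(CPM + 0.5) over the 3 Dux KO replicates, Rian was number 3, Meg3 number 6 and Mirg number 9 of 16200 genes tested. In quad KO, Rian was number 1, Meg3 number 5 and Mirg number 7 of 14920. In WT the same genes were at numbers 11754, 6929 and 2336 of 16200.

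Dlk1, the paternally expressed gene, was low in the same samples but less so. It stood at 0.597, 3.09 and 5.83 CPM in Dux KO replicates 1, 2 and 3, a range of 9.78 times that was number 114 of all genes. In quad KO it stood at 4.41, 2.12 and 3.95 CPM, a range of 2.08 times. In none of the samples with little Meg3 was Dlk1 above the lowest WT or Tet TKO sample of its table.

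In WT and Tet TKO the replicates lay close together, while Double KO replicates spanned 1.69 times in Meg3 and 1.76 times in Dlk1. WT replicates held Meg3 at 152, 146 and 141 CPM, Rian at 359, 348 and 361 CPM, Mirg at 36.4, 30.7 and 33.2 CPM and Dlk1 at 4.52, 3.74 and 4.50 CPM. Tet TKO replicates held Meg3 at 80.8, 76.8 and 75.7 CPM, Rian at 193, 190 and 190 CPM, Mirg at 20.6, 19.5 and 17.1 CPM and Dlk1 at 7.19, 7.68 and 6.65 CPM. Neither WT nor Tet TKO held a sample that stood apart.

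Quad KO was compared with Tet TKO to ask what loss of Smchd1 adds to that of the Tet genes. All 4 genes fell, and no quad KO sample reached the lowest Tet TKO sample in any of them. By limma, of 14920 genes tested 37.7% were called and 20.6% were called lower, and 28.2% were lower with no overlap of the groups, so 4 of 4 is read against a broad background. Dlk1 fell from 7.17 ± 0.511 to 3.49 ± 1.21 CPM, by 0.99 ± 0.22 (SE) on the log2 scale (adjusted p = 0.0109). Meg3 went from 77.8 ± 2.67 to 17.4 ± 23.6 CPM, with a log2 change of -3.49 ± 1.15 (adjusted p = 0.0460). Rian went from 191 ± 1.69 to 40.8 ± 54.8 CPM (log2 -3.72 ± 1.25, adjusted p = 0.0494). Mirg went from 19.1 ± 1.80 to 4.01 ± 5.44 CPM (log2 -3.01 ± 0.87, adjusted p = 0.0282). The calls of the noncoding RNAs are close to the threshold: with edgeR on the recovered reads Dlk1 alone passed (adjusted p = 0.0124), with Meg3 at -2.14 and adjusted p = 0.103, and with DESeq2 Meg3 had adjusted p = 0.226. Without any 1 of the Tet TKO samples Dlk1 alone passed. Over all alternatives run, the highest adjusted p was 0.0545 for Dlk1 (limma) and 0.226 for Meg3 (DESeq2).

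Genes next to the domain were low in the same comparison, in 2 of the 3 quad KO samples. The 25 tested genes before Dlk1 had a median log2 difference from Tet TKO of -0.62 in quad KO replicate 1, -0.96 in replicate 2 and -0.08 in replicate 3, and the 25 after Dio3 had -0.55, -0.79 and 0.01. Of 19 flanking genes listed and tested, 8 fell and none rose, or 42.1% called against 37.7% of all genes, of which 20.6% were called lower. Their median was -0.46, against -0.01 over all genes. Setd3, an actin histidine methyltransferase, fell 1.69-fold (adjusted p = 0.00836), and Ccdc85c, Wars, Rcor1, Evl and Zfp839 fell by 1.36 to 1.62 times (adjusted p = 0.0117 to 0.0375). Replicate 3, whose flanks were level with Tet TKO, still had Meg3 at 7.36 CPM against a Tet TKO minimum of 75.7 CPM. With the members centred on the flanking genes in each sample, a setting added after the data were seen that called 37.6% of genes, Mirg alone kept its call (log2 -2.56, adjusted p = 0.0442), and Dlk1 stood at -0.54 (adjusted p = 0.0545), Meg3 at -3.04 (adjusted p = 0.0621) and Rian at -3.27 (adjusted p = 0.0637). With quad KO replicate 3 as the only quad KO sample, also added after the data were seen, all 4 were called lower (Meg3 -3.32, Dlk1 -0.78), with 55.7% of genes called and a lone sample assumed to vary like Tet TKO.

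The same stretch of chromosome 12 was low in Dux KO replicate 1. In blocks of 50 tested genes counted outwards from Dlk1, its median difference from WT was -0.24 in the second block before Dlk1, -0.88 in the block just before it, -1.08 in the block just after and -0.99 in the next. The 6 blocks farther towards the centromere lay between -0.13 and 0.23. Dux KO replicates 2 and 3 lay between -0.15 and 0.22 in all blocks. In quad KO the second block before Dlk1 was as low as the first, at -0.54 in replicate 1 and -0.86 in replicate 2. Quad KO replicate 1, with its flanks at -0.62 and -0.55, held Meg3 at 44.4 CPM and Dlk1 at 4.41 CPM, against 77.8 ± 2.67 and 7.17 ± 0.511 CPM in Tet TKO. Shifted medians were not confined to chromosome 12. Chromosome 6 stood at -0.23 and -0.44 in Dux KO replicates 1 and 2 and at -0.46 in Smchd1 KO replicate 2. Chromosome 8 stood at -0.46 in Dux KO replicate 3. In Double KO replicate 3, chromosome 1 stood at 0.46 and chromosome 6 at -0.49. In quad KO replicates 1, 2 and 3, chromosome 6 stood at -0.21, -0.28 and -0.27. Chromosome 8 stood at -0.18, -0.24 and -0.27 in these samples, and chromosome X at -0.24, -0.21 and -0.23. What part the flanking shift has in the levels of Meg3, Rian and Mirg was not tested beyond the centred values above.

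**Figure D2:**
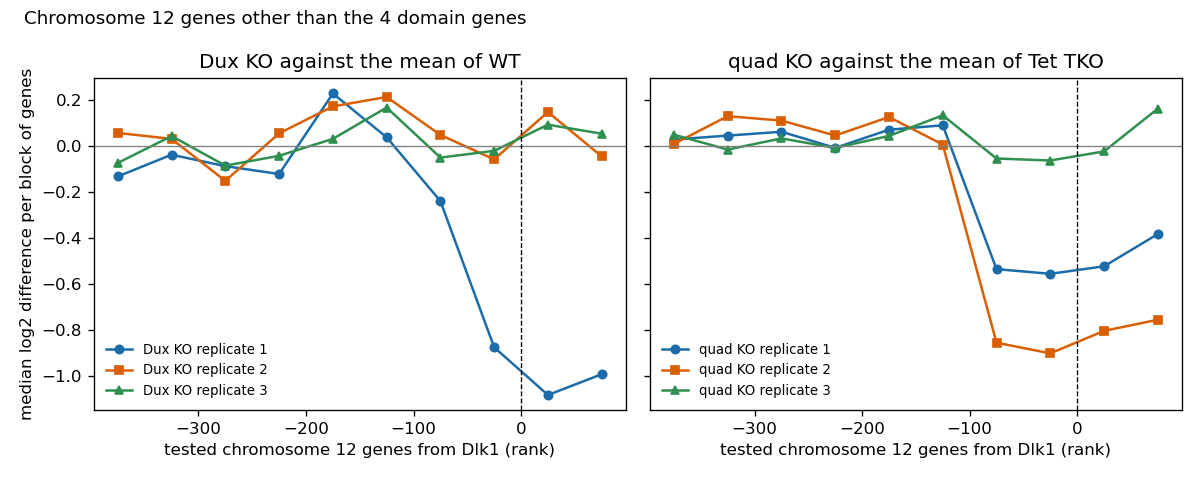
Median log2 difference per block of 50 tested chromosome 12 genes, the 4 domain genes left out, against the rank of the gene from Dlk1 (dashed line), for Dux KO against the WT mean and quad KO against the Tet TKO mean. Dux KO replicate 1 and quad KO replicates 1 and 2 fall below 0 around the domain, to -1.08, -0.56 and -0.90, and the other 3 samples stay within -0.15 and 0.22.

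Within a sample, the maternal RNAs kept their proportions in the table of the TET mutants. The Rian/Meg3 ratio of CPM was 2.33, 2.38 and 2.44 in quad KO replicates 1, 2 and 3, against 2.46 ± 0.0623 in Tet TKO, although Meg3 itself spanned 96.6 times. Mirg/Rian was 0.0989, 0.0968 and 0.0938 in quad KO and 0.0998 ± 0.00875 in Tet TKO. The counting interval (95%, counting error only) of the Rian/Meg3 ratio in replicate 2 was 1.25 to 4.56. That of Mirg/Rian there, from 3 Mirg reads, was 0.0296 to 0.317, so both values are loose. Dlk1/Meg3, in contrast, was 0.0993 in replicate 1 and 4.62 (interval 2.53 to 8.41) in replicate 2, against 0.0923 ± 0.00671 in Tet TKO.

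In the other table the proportions differed between genotypes. Rian/Meg3 was 2.44 ± 0.108 in WT and 2.19 ± 0.0456 in Smchd1 KO. It was 1.31, 1.21 and 1.90 in Dux KO and 1.19, 1.22 and 1.94 in Double KO, all below every WT and Smchd1 KO sample. Mirg/Rian was 0.0939 ± 0.00673 in WT, 0.0540 ± 0.00110 in Smchd1 KO and 0.0988 ± 0.0222 in Double KO. In Dux KO replicates 1, 2 and 3 it was 0.190 (from 8 Mirg reads), 0.0643 and 0.0688, against 0.0883 in the lowest WT sample. Mirg/Meg3 was 0.250, 0.0779 and 0.131 in Dux KO, against 0.118 ± 0.00148 in Smchd1 KO. Mirg was 1.74-fold lower against Rian, and 1.93-fold lower against Meg3, in Smchd1 KO than in WT, with no overlap of the samples. Against Meg3 it was also 1.66-fold lower in Double KO than in WT, with no overlap. Each of these had an exact two-sided permutation p = 0.1, the smallest that 3 against 3 samples can give, and p = 0.267 adjusted over 24 such tests.

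**Figure D3:**
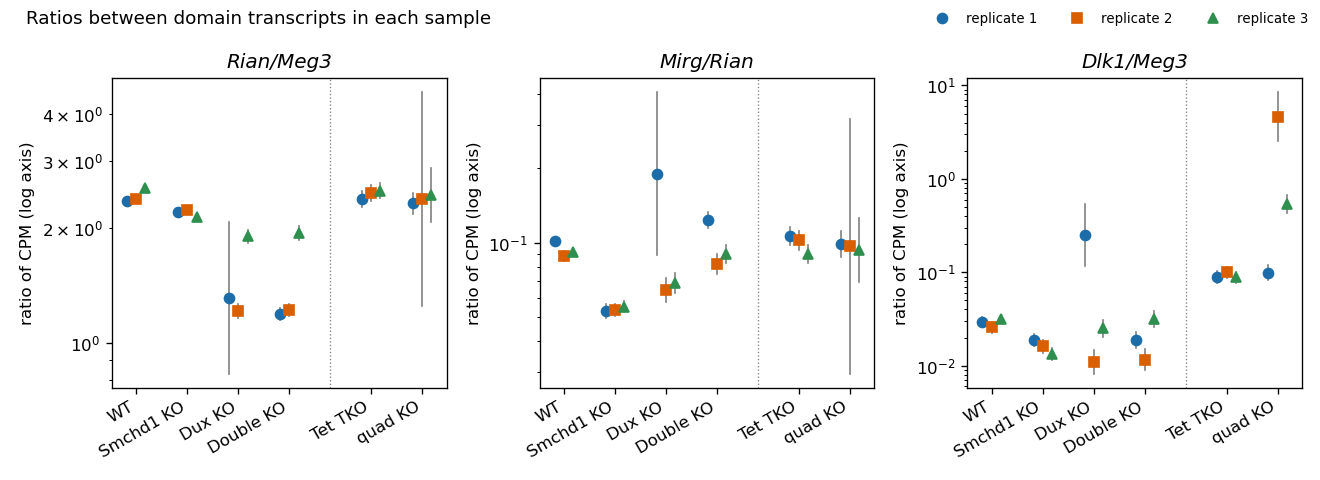
Ratios of CPM between domain transcripts in every sample on log axes, with grey bars for the 95% counting interval. Rian/Meg3 and Mirg/Rian stay near 2.4 and 0.1 in Tet TKO and quad KO, Mirg/Rian is lowest in Smchd1 KO, and Dlk1/Meg3 is highest in quad KO replicate 2, at 4.62.

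The effect of losing Smchd1 alone was read from Smchd1 KO against WT. Meg3 and Rian overlapped between the genotypes, while Mirg and Dlk1 were lower in every Smchd1 KO sample than in any WT sample. Mirg stood at 16.9, 20.1 and 21.9 CPM and Dlk1 at 2.74, 2.70 and 2.48 CPM in Smchd1 KO replicates 1, 2 and 3. Groups that do not overlap were common: 29.6% of genes were lower in this way. In the fit of all 4 genotypes no gene of the domain passed, against 0.889% of all genes called. Mirg had a log2 change of -0.76 ± 0.90 (adjusted p = 0.708), Dlk1 -0.59 ± 0.48 (0.564), Meg3 0.17 ± 1.25 (0.961) and Rian 0.02 ± 1.29 (0.994). The SE is shared by all genotypes of the fit. Without Dux KO replicate 1 that of Mirg was 0.19 in place of 0.90 (adjusted p = 0.0629, 2.41% of genes called). When no other genotype entered the fit, Mirg (adjusted p = 0.00178) and Dlk1 (adjusted p = 0.00396) passed, as did 44.1% of all genes. Dio3, the deiodinase gene at the far end of the domain, stood at 1.74 ± 0.0931 CPM in Smchd1 KO against 0.725 ± 0.103 CPM in WT (log2 0.87, adjusted p = 0.0817), the opposite side of WT from Dlk1.

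For loss of Dux, Dux KO samples were set against WT. No gene of the domain passed, against 3.98% of all genes. With all samples Meg3 had a log2 change of -1.36 ± 1.25 (adjusted p = 0.515), Rian -2.12 ± 1.29 (0.317), Mirg -1.89 ± 0.90 (0.203) and Dlk1 -0.70 ± 0.48 (0.372). Every Dux KO sample held less Mirg than any WT sample (23.1% of genes were lower with no overlap). Without replicate 1 the sign turned for 3 of the 4: Meg3 stood at 0.80 ± 0.20 (adjusted p = 0.0523), Rian at 0.12, Dlk1 at 0.01, and Mirg at -0.37, with 4.38% of genes called. The direction for Meg3, Rian and Dlk1 therefore rests on 1 sample.

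Double KO was compared with WT, with Dux KO and with Smchd1 KO. Its replicates held Meg3 at 331, 308 and 195 CPM, all above the highest WT sample, where 15.3% of genes were higher with no overlap. Rian stood at 392, 376 and 379 CPM, Mirg at 48.7, 30.9 and 34.2 CPM and Dlk1 at 6.25, 3.55 and 6.12 CPM. Double KO also differed from WT in markers. Trophoblast markers summed to 157 to 773 CPM against 71.3 to 76.0 CPM in WT. They summed to 89.9 to 187 CPM in Smchd1 KO and 29.05 to 223 CPM in Dux KO. ES cell markers summed to 2455 to 3814 against 4331 to 4413 CPM in WT. Their sums were 4243.7 to 4788.5 CPM in Smchd1 KO and 3678 to 4165 CPM in Dux KO. No gene of either list was called against WT. Against Smchd1 KO, the ES cell marker Tdgf1 and the endoderm marker Hnf4a were called lower (limma, adjusted p = 0.0218 and 0.0224). The ectoderm marker Nes and Col3a1 were called higher (limma, adjusted p = 0.0291 and 0.0256). These marker genes were named after their values were seen. The part of these markers in the levels of the domain was not tested. With all samples no gene of the domain passed against WT (1.57% of genes called), against Dux KO (0.0123%) or against Smchd1 KO (4.38%). Against Dux KO, 2 genes in all passed by limma, 9.77% had an unadjusted p under 0.05, and edgeR called 2 and DESeq2 220. Meg3 had a log2 change from WT of 0.89 ± 1.25 (adjusted p = 0.705), and 0.89 ± 0.18 (adjusted p = 0.0332) in the fit without Dux KO replicate 1, where 3.76% of genes were called. In that fit Mirg (0.91, adjusted p = 0.0187) and Meg3 (0.71, adjusted p = 0.0360) were also called higher than in Smchd1 KO, beside 10.3% of all genes. Every Double KO sample lay above every Smchd1 KO sample in Dlk1, Meg3 and Mirg (13.0% of genes were higher in this way) and above every Dux KO sample in Mirg (3.05%).

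The effect of Smchd1 in the Dux KO background was set against its effect in WT by the interaction term. Mirg was lower in Smchd1 KO than in WT and higher in Double KO than in Dux KO, with no overlap in either pair, as were 29.6% of genes lower in the first and 3.05% higher in the second. The gap between Double KO and Dux KO was narrow, 30.9 against 30.3 CPM, and neither change passed (adjusted p = 0.708 and 0.478 by limma). By limma the difference between the effects was 2.81 ± 1.27 on the log2 scale (adjusted p = 0.279), and for Dlk1 it was 1.55 ± 0.68 (adjusted p = 0.264). No gene of the domain passed, and 0.512% of all genes did. Without Dux KO replicate 1 the difference for Mirg was smaller, 1.28 ± 0.28, and passed (adjusted p = 0.0367, 4.2% of genes called).

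**Figure D4:**
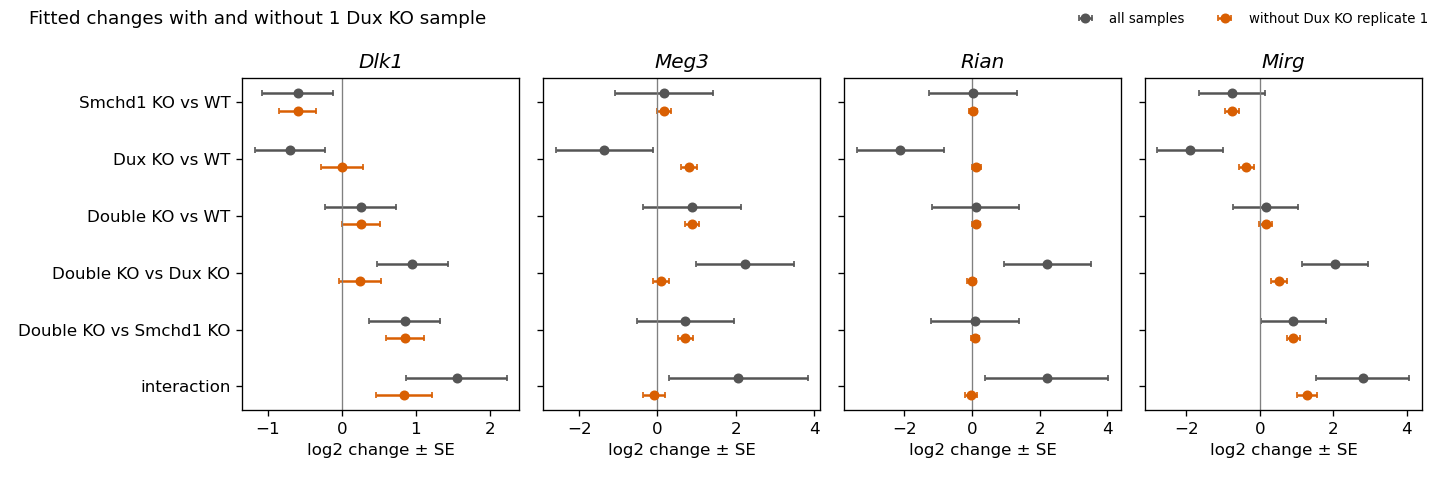
Fitted log2 changes with SE for each gene and comparison of the first table, with all samples (grey) and without Dux KO replicate 1 (orange); the interaction is the Smchd1 effect in Dux KO minus that in WT. Leaving out the sample narrows every error bar and brings Meg3 and Rian in Dux KO against WT from -1.36 and -2.12 to 0.80 and 0.12.

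Ordered by mean level within the first table, Meg3 was highest in Double KO (278 ± 72.5 CPM), then Dux KO (172 ± 149), Smchd1 KO (166 ± 20.2) and WT (146 ± 5.58). Rian followed the order Double KO (383 ± 8.74 CPM), Smchd1 KO (363 ± 40.1), WT (356 ± 7.32) and Dux KO (261 ± 229). Mirg followed Double KO (37.9 ± 9.46 CPM), WT (33.4 ± 2.87), Smchd1 KO (19.6 ± 2.52) and Dux KO (17.6 ± 15.3), and Dlk1 followed Double KO (5.31 ± 1.52 CPM), WT (4.25 ± 0.441), Dux KO (3.17 ± 2.62) and Smchd1 KO (2.64 ± 0.140). Neighbours in these orders differed by less than the larger of their SDs, with the exception of WT and Smchd1 KO in Mirg.

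The small RNA genes within the noncoding transcripts were lowest in the samples where their hosts were lowest. Of 53 miRNA entries between Dlk1 and Dio3, the 47 on the strand of the noncoding RNAs were summed. WT replicates held 18.5, 15.7 and 16.7 CPM and Dux KO replicates 0.298, 20.3 and 19.7 CPM. Dux KO replicate 1 had 4 reads over all these entries. Quad KO replicates held 4.95, 0.0707 and 0.790 CPM, against 10.7, 9.23 and 8.51 CPM in Tet TKO. The 22 snoRNA entries gave 0.149, 20.5 and 18.7 CPM in Dux KO and 3.01, 0.0707 and 1.01 CPM in quad KO, with 14.4 to 16.3 CPM in WT and 5.43 to 6.27 CPM in Tet TKO. Smchd1 KO held 12.1 ± 0.806 CPM over the miRNA and 13.8 ± 2.58 CPM over the snoRNA entries. Double KO held 23.7 ± 4.11 and 21.3 ± 1.89 CPM, each replicate above every WT sample, against 17.0 ± 1.43 and 15.3 ± 0.976 CPM in WT. The mean of Rian, the snoRNA host, was 383 in Double KO against 356 CPM in WT. That of Mirg, the host of many of the miRNAs, was 37.9 ± 9.46 against 33.4 ± 2.87 CPM. The proportion of the sums to their hosts was not tested.

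**Figure D5:**
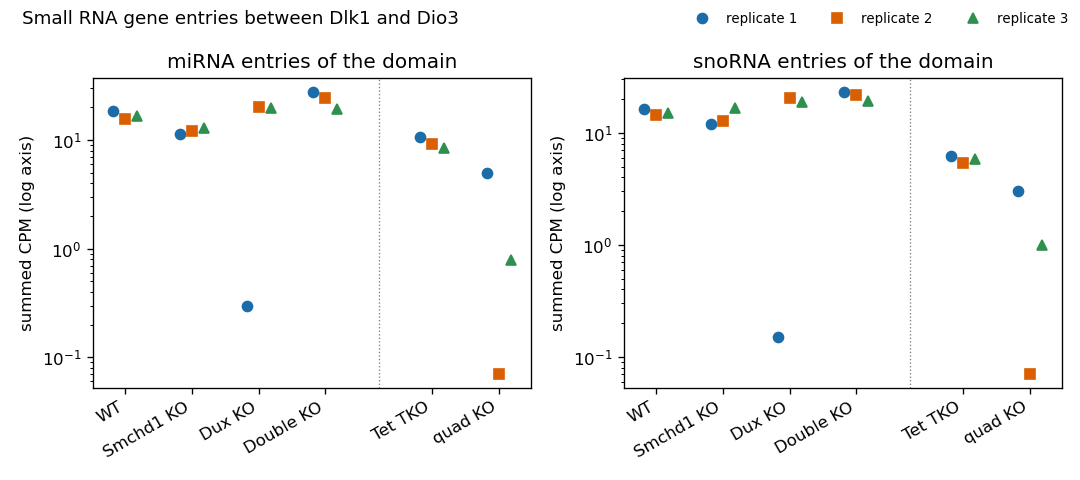
Summed CPM of the miRNA and snoRNA gene entries between Dlk1 and Dio3 in every sample, on log axes, by genotype, with the dotted line between the 2 tables. Dux KO replicate 1 (0.298 and 0.149 CPM) and quad KO replicate 2 (0.0707 CPM in each) are the lowest samples of their tables.

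Single entries showed it too. Mir127, whose 3p product is printed above, had 0, 12 and 22 reads in Dux KO replicates 1, 2 and 3 and 17, 0 and 4 reads in quad KO. Mir433 had 0, 24 and 16 reads in Dux KO and 19, 0 and 3 in quad KO, with 37, 33 and 39 reads in Tet TKO. Mir379 and Mir411, the pair with a shared seed, had 0 reads in Dux KO replicate 1 and in quad KO replicate 2. A count of 0 allows up to 3 reads. Of the first table, 33 small RNA entries were tested and none passed in any comparison, where 0.0123% to 4.38% of all genes did. For Double KO against Dux KO, 7 of the 33 had an unadjusted p under 0.05 by limma, beside 9.77% of all genes. The entries lie within the same transcripts and are not independent. In the second table, 3 miRNA and 2 snoRNA entries passed the filter. Such low entries could pass through the Tet TKO samples alone, where they are high, so no count of calls is given for them. Rtl1 lies opposite to the miRNA genes, and how the strand was counted is not given in the sources used here, so its reads and those of the maternal RNA cannot be told apart. It stayed under the filter, at 0.362 ± 0.110 CPM in WT. Begain, a neighbour of Dlk1, fell 1.73-fold in quad KO (adjusted p = 0.0134), and Dio3 stood at 1.44 CPM in both Tet TKO and quad KO.

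Of 30 tested genes known to act on imprinted domains, 4 rose and 11 fell in quad KO, with a median of -0.03 and 50% called against 37.7% of all genes. The 11 include Smchd1, the gene removed in quad KO, whose fall was set by the design. Dnmt3l, the cofactor of the de novo DNA methyltransferases, fell 1.87-fold (adjusted p = 0.000521), Uhrf1, which guides maintenance methylation, fell 1.34-fold, and Ezh2, the methyltransferase of the Polycomb complex, fell 1.35-fold. Aff3, a factor that binds the control region of this domain in mouse ES cells, rose 1.80-fold (adjusted p = 0.000279). Tet2 fell 1.43-fold, and Smchd1 fell 7.31-fold, to 18.1, 12.2 and 40.0 CPM in quad KO replicates 1, 2 and 3. Zfp57 was at 349, 306 and 427 CPM in these samples, against 333 to 341 CPM in Tet TKO, and was not called. Zfp57 was chosen after its values were seen, since its motif was searched.

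Of the Notch pathway, with which DLK1 interacts, 4 genes rose and 5 fell of 29 tested (median 0.08). Hes1, a main target gene of the pathway, fell 1.61-fold (adjusted p = 0.000578), the receptor gene Notch1 fell 1.29-fold and Rbpj, the DNA-binding partner of active Notch, fell 1.44-fold. The ligand gene Dll3 (1.64-fold), the Dlk1 relative Dlk2 (1.63-fold) and the target gene Hey2 (1.52-fold) rose. The share called, 31.0%, lay below the 37.7% of all genes.

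Other imprinted genes give a frame for the domain. Of all genes 37.7% were called in quad KO and 20.6% were called lower. Of 22 paternally expressed genes elsewhere, 3 rose and 14 fell (77.3% called, median -0.58), among them Plagl1 (2.58-fold), Zrsr1 (1.61-fold), Mest (2.76-fold), Fkbp6 (12.7-fold), Peg12 (2.17-fold) and Nap1l5 (2.14-fold). Of 18 maternally expressed genes, 8 rose and 3 fell (61.1% called, median 0.07): Grb10 (1.79-fold), Gatm (2.57-fold), Calcr (1.72-fold), Cdkn1c (1.99-fold) and Osbpl5 (1.97-fold) rose, and Ppp1r9a fell 1.51-fold. H19, a maternally expressed noncoding RNA named after its values were seen, held 10.7, 2.19 and 131 CPM in quad KO replicates 1, 2 and 3 and 262 to 281 CPM in Tet TKO. Against the mean of its fellow replicates on the log2 scale, Dux KO replicate 1 differed in Rian by -6.74, Meg3 by -6.47, Mirg by -4.58 and Dlk1 by -2.12, while the 42 other imprinted genes tested lay between -1.27 and 2.85. In quad KO replicate 2 the same differences were -4.78 for Rian, -4.29 for Meg3, -3.00 for Mirg and -0.83 for Dlk1, and the 40 other imprinted genes lay between -3.83, the value of H19, and 1.30. By this difference from its fellow replicates, H19 lay further down there than Mirg and Dlk1. Dio3, at the far end of the domain, held 0.447, 0.893 and 0.852 CPM in Dux KO and 1.27, 0.778 and 2.26 CPM in quad KO. These values describe the samples, with no test.

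Markers of ES cells and of other cell types were read beside the domain, against 37.7% of all genes called and 20.6% called lower in quad KO against Tet TKO. Of 9 ES cell markers 6 fell and 1 rose (median -0.48), led by Klf4, Nanog, Zfp42, Esrrb and Sox2, and the summed level of the list was 3798 to 3912 CPM in Tet TKO and 3042 to 3171 CPM in quad KO. Nanog held 61.5, 65.0 and 30.8 CPM in quad KO replicates 1, 2 and 3 and 252 to 276 CPM in Tet TKO. Trophoblast markers summed to 226 to 236 CPM in Tet TKO and 280 to 537 CPM in quad KO (5 rose and 1 fell of 7), mesoderm markers to 11.4 to 12.04 and 20.1 to 22.4 CPM (4 of 5 rose), fibroblast markers to 23.7 to 24.7 and 36.3 to 41.6 CPM (3 of 6 rose), and ectoderm markers to 90.2 to 93.6 and 109 to 122 CPM (3 rose and 1 fell of 5). Endoderm markers summed to 23.3 to 24.2 and 22.8 to 24.99 CPM (2 rose and 3 fell of 7), with Ttr at 0. The lists are short, so 1 gene moves their share by more than 10 percentage points. Nanog was lowest in replicate 3, which was not the sample with the least Meg3. The part of these markers in the change of the domain was not tested.

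The genes most like Meg3 across the 12 samples of the first table, by Pearson's r of log2(CPM + 0.5), were 4 SNORD113 entries of the domain (r = 0.951 to 0.971) and Foxn3 of chromosome 12 (r = 0.965). Dux KO replicate 1 was the lowest Dux KO sample in Foxn3 as well, at 23.9 CPM against 50.8 and 52.2 CPM. Most like Dlk1 were Fam43a (r = 0.967), D230037D09Rik (0.967), Yy1 (0.957), Cdc42bpb (0.937) and Mir127 (0.935), of which all but Fam43a lie on chromosome 12. Among the members, Meg3 had r = 0.975 with Rian, above all genes of that ranking, 0.952 with Mirg and 0.830 with Dlk1. All r of this table lean on Dux KO replicate 1. There Meg3 stood at 1.53 on the log2(CPM + 0.5) scale, against 7.15 to 8.37 in the other samples. Rian stood at 1.86 there, against 8.32 to 8.78 in the others. The r without this sample was not computed. Over the 6 samples of the second table, Meg3 had r = 0.999 with Rian, 0.994 with Mirg and 0.953 with Dlk1. Outside the members, the genes most like Meg3 were Nnat (r = 0.996), an imprinted gene of chromosome 2, Creb5 (0.992), Top1mt (0.989), Iqgap2 (0.985) and a SNORD113 entry (0.984). Those most like Dlk1 were Ubn2 (0.999), Rwdd2a (0.994), 0610007C21Rik (0.993), Tmem17 (0.993) and Fam43b (0.992). These values share the libraries and the difference between genotypes, and carry no test.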

How the data were processed

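RNA of 18 ES cell samples was sequenced in 24 libraries, with 2 technical runs for each WT and Smchd1 KO replicate. Per the submitters' processing notes, Trim Galore, STAR 2.5.1, limma 3.38.2 and genome build mm9 were used; the counter, its strand setting and the annotation are not given in the sources used here. What the authors deposited is a signal scaled by library, CPM of an effective library size (column totals 906871 to 1054029), in 2 tables normalized separately. Of values worth under 200 reads, 100% were within 0.1 read of a whole multiple, so whole read counts were recovered from the deposited signal. The Smchd1 KO columns do not name the replicate, and were joined into 3 pairs by least noise; the replicate numbers of this genotype are therefore arbitrary. Another 3 columns of the second table could not be given to a sample and were not used, so Tet TKO was not compared with WT.

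Technical runs were averaged. Genes at 0.5 CPM or more in 3 or more samples were kept, and log2(CPM + 0.5) was fitted with limma 3.58.1 in R 4.3.3 with an intensity trend, all genotypes of a table together. Tests are two-sided, with Benjamini-Hochberg adjustment over 16200 or 14920 genes and a threshold of 0.05. Fold changes are on this scale, and the added 0.5 makes those of low genes smaller. The p-values measure the spread between these samples only, and WT and Tet TKO replicates differed about as little as technical runs. edgeR 4.0.16 and DESeq2 1.42.0 were run on the recovered reads. Gene order along chromosome 12 and the printed sequences come from GRCm38, another build than that of the files, so the files' own coordinates are not used. Of all entries 87.4% matched that annotation.

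The members and gene lists were chosen with earlier results of these data known. Members are named in full; a gene of a list is named where it passed in a comparison in which a member passed, at most 6 per list by adjusted p, and likeness to Meg3 and Dlk1 names 5 genes per table. Replicate numbers did not pair the samples (correlation of deviations -0.42 to 0.47 and -0.03 to 0.02 in the 2 tables).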

Additional observations from a re-analysis of the deposited data

Results flagged for a closer look

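The level of Mirg with loss of Smchd1 differed in direction between the 2 backgrounds: every Smchd1 KO sample lay below every WT sample (29.6% of genes did so), and every Double KO sample above every Dux KO sample (3.05% of genes), the latter by 30.9 against 30.3 CPM. Neither change passed alone (limma, adjusted p = 0.708 and 0.478). The difference of the effects was 2.81 on the log2 scale (limma interaction, adjusted p = 0.279), and 1.28 without Dux KO replicate 1 (adjusted p = 0.0367). It ranged from 1.28 to 3.68 over the alternatives, with adjusted p = 0.0367 to 0.459.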

How the results depend on the processing

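With all samples no domain gene passed in the first table, where 0.0123% to 4.38% of all genes did. In quad KO against Tet TKO 4 passed, beside 37.7% of all genes. When WT and Smchd1 KO were fitted without other genotypes, 2 passed, beside 44.1% of all genes. Leaving out each replicate gave 0 to 1 for Double KO against WT, 0 to 2 for Double KO against Smchd1 KO, 0 to 1 for the interaction and 1 to 4 for quad KO against Tet TKO, where leaving out any Tet TKO sample left 1, with fewer samples in the fit. The upper counts of the first table were reached without Dux KO replicate 1, with 3.76%, 10.3% and 4.2% of all genes called. In quad KO against Tet TKO 2 passed with a pseudocount of 0.1, 2 with no filter and 2 with chromosome medians centred. With edgeR 1 passed (38.3% of all genes called), with DESeq2 1 (36.0%) and with the flanking genes centred 1 (37.6%). The cause was not tested.

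Of the changes of single members, 593 kept their direction and side of the threshold, 24 lost and 6 gained a call, and 13 changed sign. None of the 13 was past the threshold. In Smchd1 KO against WT, Rian turned to -0.042 with chromosome medians centred, and to -0.00304 and -0.041 without Smchd1 KO replicate 2 or 3. In Dux KO against WT, Meg3 turned to 0.26 with edgeR and 0.25 with DESeq2, and without Dux KO replicate 1 Meg3 turned to 0.80, Rian to 0.12 and Dlk1 to 0.00976, with lowest values of -2.50, -3.34 and -1.26 when another replicate was left out. Left-out replicates gave Mirg -0.036 to 0.29 in Double KO against WT (lowest without Double KO replicate 1), and Rian -0.018 to 3.44 in Double KO against Dux KO (without Dux KO replicate 1) and -0.012 to 0.15 in Double KO against Smchd1 KO (without Smchd1 KO replicate 1). The interaction ran from -0.086 to 3.22 for Meg3 and from -0.041 to 3.42 for Rian, lowest without Dux KO replicate 1.

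The replicate block left 0 members past the test in the first table's comparisons and 4 in the second, and changed no member's call. The numbers mark no shared batch in the labels, and those of Smchd1 KO are arbitrary. Over all genes, the counts past the test moved by more than 1.5 times with many settings. They ran from 37 to 6763 against 144 for Smchd1 KO against WT, from 2 to 2797 against 644 for Dux KO against WT, from 2 to 3015 against 255 for Double KO against WT, from 0 to 220 against 2 for Double KO against Dux KO, from 50 to 2456 against 709 for Double KO against Smchd1 KO, and from 0 to 1216 against 83 for the interaction. For quad KO against Tet TKO, 3329 genes passed without Tet TKO replicate 2 and 5930 with quantile normalization, against 5619. On the recovered reads edgeR called 230, 933, 555, 2, 897, 7 and 5708 genes and DESeq2 called 1084, 2606, 2008, 220, 2456, 948 and 5367 in the same order. Low counts limit Dux KO replicate 1, with 8 reads each of Dlk1 and Mirg, and quad KO replicate 2, with 3 reads of Mirg.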
